A study of Mus musculus with 8 samples.

Results

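Fibroblast growth factor (FGF) ligands and receptors were examined in medial knee cartilage before and after joint destabilisation. The set was 9 of the 50462 genes in the deposited table, namely the ligands Fgf1, Fgf2, Fgf7, Fgf9 and Fgf18 and the receptors Fgfr1, Fgfr2, Fgfr3 and Fgfr4. They were chosen by name, as FGF genes known from work on cartilage, with earlier results of these data known. All 9 were found by gene identifier. The 8 RNA-seq libraries came from wild-type male C57Bl/6J mice, 1 library per mouse. The 4 naive mice were unoperated and were taken at day 0, at 11 weeks of age. In the 4 mice given surgical destabilisation of the medial meniscus (DMM), a model of post-traumatic osteoarthritis, the ligament that ties the medial meniscus to the tibia was cut in the left knee at 11 weeks. These mice were taken at day 42, at 17 weeks of age. As no sham operation was among the groups used here, the effects of the operation and of being 6 weeks older cannot be told apart.

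FGF ligands are secreted proteins that bind receptor tyrosine kinases on the cell surface with heparan sulfate as a cofactor, and the activated receptors signal through adaptor proteins to the ERK MAP kinases. In cartilage the matrix stores Fgf2 on heparan sulfate chains of perlecan, and loading or cutting the tissue releases it. Fgfr1 and Fgfr3 are often set against each other in articular cartilage, with catabolic responses ascribed to Fgfr1 and anabolic responses to Fgfr3, the receptor through which Fgf18 is thought to act.

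Of these 9 genes, Fgf1, Fgf2 and Fgfr1 were called higher in DMM cartilage, and none was called lower. Fgf1 was 2.23-fold, Fgfr1 2.13-fold and Fgf2 1.82-fold higher than in naive cartilage. Fgfr2 and Fgfr3 were 1.31-fold and 1.30-fold higher, under the 1.5-fold set for a call, although both passed the adjusted p. Fgf7, Fgf9 and Fgf18 did not pass the test, and Fgfr4 was at the limit of detection. A gene was called when its change was at least 1.5-fold and its p from DESeq2, adjusted by the Benjamini-Hochberg method over all genes tested, was at most 0.05. Of the 17760 genes tested 13.7% were called, 7.75% as higher and 5.92% as lower in DMM. On the adjusted p alone, 5 of the 9 genes passed, all with higher means in DMM, beside 22.6% of all genes tested (11.4% higher). For 2 of the 9, Fgf1 and Fgfr1, no DMM library overlapped any naive library, as held for 22.2% of the genes tested.

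Values below are normalised counts, that is estimated read counts divided by a size factor for each library. Total estimated counts lay between 12479443 and 16548002 per library. Across all genes, 1377 were called higher and 1052 lower in DMM. With libraries scaled by their total count, 2030 were higher and 489 lower, and the median log2 fold change, over genes averaging 10 counts or more, moved from -0.01 to 0.14. The calls of the 9 genes were the same under both scalings. Of the chondrocyte markers, the cartilage proteoglycan gene Acan had 5202.5 to 8260.3 normalised counts in naive and 11597.8 to 16872.7 in DMM libraries. Others were uneven within groups, with the matrix genes Matn3 and Col9a1 at 18.5 and 98.5 in naive library 1 and 329.9 and 1710.8 in naive library 2, and their log2 fold changes were -0.29 and -0.36.

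Other cell types were also represented in this bulk tissue, although the labels give chondrocytes. A list of 10 chondrocyte markers held 0.304% to 0.437% of counts in naive and 0.711% to 1.31% in DMM libraries, with 5 genes called higher. A list of 9 osteoblast and osteocyte markers held 0.132% to 0.199% in naive and 0.326% to 0.596% in DMM libraries, with 8 genes called higher. The neutrophil list held 0.893% to 1.25% in naive and 0.421% to 0.889% in DMM libraries, with 9 of its 10 genes called lower, and 8 of 9 erythroid markers were also called lower. Of 8 fibroblast and synovial markers 6 were called higher, as were 3 of 6 endothelial markers and 1 of 7 osteoclast markers. No macrophage, B cell or skeletal muscle marker was called, and no marker was at 0 in all libraries. Of all genes tested, 7.75% were called higher and 5.92% lower. The chondrocyte and the bone list thus took a larger share of counts in every DMM library than in any naive library. The same held for the fibroblast and synovial list (0.0153% to 0.0257% in naive, 0.026% to 0.0487% in DMM). It also held for the endothelial list (0.0203% to 0.0283% in naive, 0.0331% to 0.0383% in DMM). The neutrophil list took a smaller share in every DMM library. The erythroid list overlapped between groups, at 1.07% to 1.8% in naive and 0.594% to 1.26% in DMM libraries. The B cell list, at 0.0217% to 0.03% in naive and 0.0257% to 0.0569% in DMM libraries, and the macrophage list, at 0.0458% to 0.0489% and 0.0462% to 0.0569%, overlapped between groups. The part of these markers in the FGF results was not tested, and in bulk tissue fewer cells of a type and less RNA per cell cannot be told apart.

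Promoter sequence is shown for Fgfr2 and Fgfr3, the receptors whose modest changes were of nearly equal size, to set their start regions side by side. Both are RefSeq sequences on GRCm38.p6 that lie before a start RefSeq gives the gene, printed 5′ to 3′ on the gene's strand. For Fgfr2 this start lies inside the gene's GENCODE span, because a transcript in that annotation begins far upstream. Capitals mark a GC box, searched as GGGCGG on both strands.
Fgfr2, chr7:130266809-130267058, minus strand: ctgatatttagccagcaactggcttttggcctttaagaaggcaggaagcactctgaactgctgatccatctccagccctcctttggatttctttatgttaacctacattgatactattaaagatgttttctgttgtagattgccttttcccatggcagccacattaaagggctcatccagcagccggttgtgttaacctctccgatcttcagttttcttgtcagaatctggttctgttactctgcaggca
Fgfr3, chr5:33721474-33721673, plus strand: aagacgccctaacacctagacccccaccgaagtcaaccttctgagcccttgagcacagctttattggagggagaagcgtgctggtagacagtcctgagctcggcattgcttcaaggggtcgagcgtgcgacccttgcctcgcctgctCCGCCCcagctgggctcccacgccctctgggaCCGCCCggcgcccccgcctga
The Fgfr2 window was 44.0% G and C and held no GC box, whereas the 200 bases of Fgfr3 were 65.0% G and C and held 2. Among 32851 promoters, 32.7% held a GC box in a window of 250 bases and 24.6% in one of 200 bases. A CCAAT box (searched as CCAAT on both strands) occurred once in the Fgfr3 window, as in 28.4% of windows of that length, and not in the Fgfr2 window. Neither window held a TATA box (TATAAA) or an AP-1 site (TGANTCA). These occurred in 12.4% and 6.75% of windows of 250 bases and in 9.14% and 5.57% of windows of 200 bases. The Fgfr2 window runs from 250 bases to 1 base before its start. The Fgfr3 window runs from 250 to 51 bases before its start, so the bases nearest that start were not searched. RefSeq gives Fgfr3 another start a short way downstream, which is not shown. A match of letters is a description of the sequence and not a binding site.

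Among the ligands, Fgf1 (acidic FGF, chromosome 18 of GRCm38) binds all FGF receptors and had the highest mean level per length of the 5 ligands. It had 200.5, 196.9, 193.7 and 244.9 normalised counts in the naive libraries and 339.2, 546.1, 430.5 and 554.1 in the DMM libraries. Every DMM library lay above every naive library. Fgf1 rose by 1.16 on the log2 scale (SE 0.18, 95% interval 0.80 to 1.52, DESeq2 adjusted p = 2.93e-08). Its call held with any 1 library left out, with estimates from 1.07 to 1.29.

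Fgf2 (basic FGF, chr3:37348346-37410108) is the ligand that cartilage matrix stores and releases. Normalised counts were 186.4, 135.7, 164.8 and 244.9 in naive and 233.9, 378.4, 378.7 and 346.6 in DMM libraries. The groups overlapped at a single pair of libraries, with naive library 4 just above DMM library 1. Fgf2 rose by 0.87 on the log2 scale (SE 0.21, 95% interval 0.45 to 1.29, DESeq2 adjusted p = 0.000784), and the call held with any 1 library left out. Its exons overlap those of Nudt6 on the opposite strand by 640 bases, and whether the counting used strand is not stated. Nudt6 had only 16.2 to 37.3 estimated counts per library.

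Fgf7 (keratinocyte growth factor, chr2:126034658-126091185) is made by mesenchymal cells and acts mainly on epithelial Fgfr2. It had 138.1, 74.5, 94.2 and 133.8 normalised counts in naive and 74.6, 112.9, 107.0 and 106.5 in DMM libraries, and the groups overlapped. The estimated log2 fold change was -0.14 (SE 0.24, DESeq2 adjusted p = 0.741). The interval of the fold change, 0.652 to 1.26, leaves out an increase of 1.5-fold but includes a decrease of 1.5-fold.

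Fgf9 (chr14:58070547-58112720) is a growth plate and joint ligand with affinity for Fgfr3. It had 69.5, 55.9, 96.3 and 95.2 normalised counts in naive and 69.7, 46.2, 58.4 and 100.2 in DMM libraries. Both the lowest and the highest value were in DMM, so the DMM values enclosed the naive ones. The estimated log2 fold change was -0.21 (SE 0.29, fold interval 0.588 to 1.28, DESeq2 adjusted p = 0.679).

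Fgf18 (chr11:33117430-33147400), a ligand whose recombinant form has been given to build cartilage, was the scarcest of the 5. It had 5.3, 8.0, 16.1 and 23.8 normalised counts in naive and 17.4, 6.4, 32.1 and 11.7 in DMM libraries. Values varied several-fold inside both groups, and the groups overlapped. The estimated log2 fold change was 0.37 (SE 0.61, DESeq2 adjusted p = 0.738), and its interval of 0.566-fold to 2.93-fold includes a change of 1.5-fold in either direction. The sign turned, to -0.14, without DMM library 3.

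**Figure D1:**
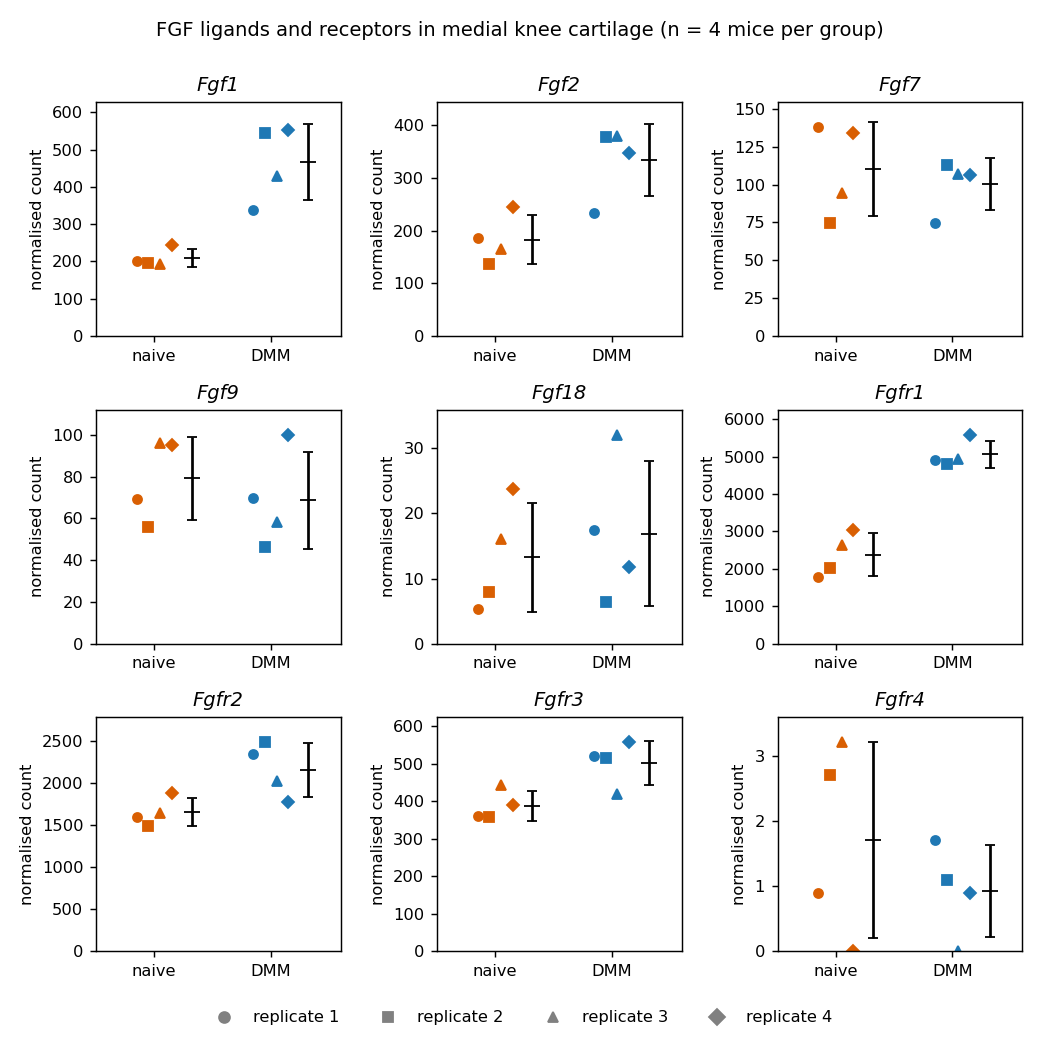
Normalised counts (vertical axis, from 0) of the 9 FGF genes in 4 naive (orange) and 4 DMM (blue) libraries, with marker shape giving the replicate number and black bars the mean ± SD. Fgf1 and Fgfr1 have no overlap between groups, whereas Fgf7, Fgf9 and Fgf18 overlap and Fgfr4 stays below 4 normalised counts in each library.

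Among the receptors, Fgfr1 (chr8:25513654-25575718) was the most abundant and the only one called. It had 1791.3, 2015.5, 2644.6 and 3050.0 normalised counts in naive and 4902.8, 4808.4, 4934.3 and 5591.1 in DMM libraries. The lowest DMM library stood far above the highest naive library. Fgfr1 rose by 1.09 on the log2 scale (SE 0.16, 95% interval 0.77 to 1.41, DESeq2 adjusted p = 5.87e-09), with estimates from 0.98 to 1.23 when any 1 library was left out. An antisense gene that shares 164 exon bases, Gm16159, had 14.8 to 40.5 estimated counts in naive and 47.2 to 62.5 in DMM libraries, a small fraction of the Fgfr1 count.

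Fgfr2 (chr7:130162451-133123350) exists in an epithelial and a mesenchymal splice form, which gene counts do not separate. It had 1590.0, 1484.7, 1639.6 and 1878.8 normalised counts in naive and 2346.9, 2481.1, 2021.8 and 1773.5 in DMM libraries. DMM library 4 lay below naive library 4, and the other 3 DMM libraries lay above all naive ones. The estimated log2 fold change was 0.39 (SE 0.13, 95% interval 0.12 to 0.65, DESeq2 adjusted p = 0.0221). The adjusted p was 0.0677 to 0.103 without naive library 1, 2 or 3 or DMM library 1 or 2, so the result is sensitive to single libraries. The neighbouring gene Ctbp2 shares 314 exon bases with Fgfr2 on the same strand and had 265.4 to 472.3 estimated counts.

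Fgfr3 (chr5:33721674-33737068) is the receptor that restrains growth plate chondrocytes. It had 359.7, 357.9, 444.2 and 388.9 normalised counts in naive and 520.0, 514.9, 419.0 and 556.9 in DMM libraries. DMM library 3 lay below naive library 3, and the other 3 DMM libraries lay above all naive ones. The estimated log2 fold change was 0.37 (SE 0.14, 95% interval 0.11 to 0.64, DESeq2 adjusted p = 0.0305). The adjusted p was above the threshold without any 1 of naive libraries 1, 2 and 4 or DMM libraries 1, 2 and 4, at 0.0579 to 0.128. Of the 31-base words of Fgfr3 transcripts, 14.86% also occur in another gene, mostly an unclassified transcript on the opposite strand.

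Fgfr4 (chr13:55152640-55168759), known for its role in liver bile acid control, was near absent. It had estimated counts, rounded, of 1, 2, 3 and 0 in naive and 2, 1, 0 and 1 in DMM libraries. Every library was at or under 3 counts, so no fold change is given, and DESeq2 gave no adjusted p.

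**Figure D2:**
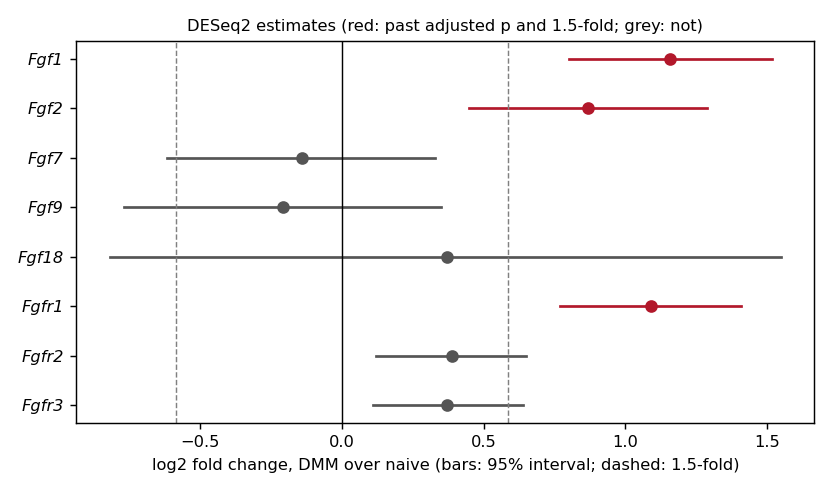
DESeq2 log2 fold changes, DMM over naive (horizontal axis), of the 8 FGF genes with an adjusted p, with bars for the 95% interval and dashed lines at a 1.5-fold change. Fgf1, Fgf2 and Fgfr1 (red) were called, and the interval of Fgf18 is the widest.

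Levels of different genes were compared per kilobase of exon, on the scale of normalised counts per kilobase. Fgfr1 led in naive cartilage at 241 ± 58.4 (SD, n = 4), followed by Fgfr2 at 160 ± 16.1 and Fgfr3 at 54.2 ± 5.63. Of the ligands, Fgf1 stood at 38.3 ± 4.41, Fgf7 at 33.9 ± 9.51, Fgf2 at 27.0 ± 6.82, Fgf9 at 17.0 ± 4.28 and Fgf18 at 11.2 ± 7.06. The neighbours Fgf1 and Fgf7, Fgf7 and Fgf2, and Fgf9 and Fgf18 differed by less than their spread. In DMM cartilage Fgfr1 stood at 512 ± 36.3 and Fgfr2 at 209 ± 30.9. Fgf1 at 85.6 ± 18.8 then came next to Fgfr3 at 70.2 ± 8.22, a difference within the spread, and with the longest coding transcript as the length the order of this pair turned. Fgf2 at 49.3 ± 10.1 was above Fgf7 at 30.9 ± 5.33 in DMM, the reverse of their naive order. Fgf9 at 14.8 ± 4.97 and Fgf18 at 14.3 ± 9.32 were close to each other.

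The receptor make-up is given as shares. Per kilobase, Fgfr1 made up 52.4% ± 4.24 of receptor RNA in naive and 64.7% ± 3.85 in DMM cartilage (SD, n = 4 each). Fgfr2 went from 35.4% ± 3.35 to 26.4% ± 3.94 and Fgfr3 from 12.1% ± 1.4 to 8.85% ± 0.762. The shares must sum to the whole, so a lower share of Fgfr2 or Fgfr3 is not a lower level, and no test was run on them. Fgfr4 contributed 0.109% and 0.032%. The shares depend on the length used. Per kilobase of the longest coding transcript, Fgfr1, Fgfr2 and Fgfr3 stood at 471, 382 and 91.3 normalised counts in naive cartilage. In DMM cartilage they stood at 1000, 500 and 118.

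The balance of the paired receptors was tested as the log2 ratio of Fgfr1 to Fgfr3 normalised counts, which does not depend on how libraries are scaled. It was 2.32, 2.49, 2.57 and 2.97 in naive and 3.24, 3.22, 3.56 and 3.33 in DMM libraries. All DMM ratios lay above all naive ratios. The mean difference was 0.75 (two-sided exact permutation test over 70 assignments, p = 0.0286, the smallest p this design can give), so that the mean ratio of counts went from 6.02 to 10.1. With any 1 DMM library left out the difference stayed between 0.674 and 0.785 and the exact p was 0.0571. Within replicate numbers the exact p was 0.125, the smallest that pairing allows.

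The same ratio for the ligands Fgf18 and Fgf2 was -5.14, -4.09, -3.36 and -3.36 in naive and -3.75, -5.87, -3.56 and -4.88 in DMM libraries. The groups overlapped widely. The mean difference was -0.53 (two-sided exact permutation test, p = 0.486), and it ranged from -0.913 to -0.0757 when any 1 library was left out.

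**Figure D3:**
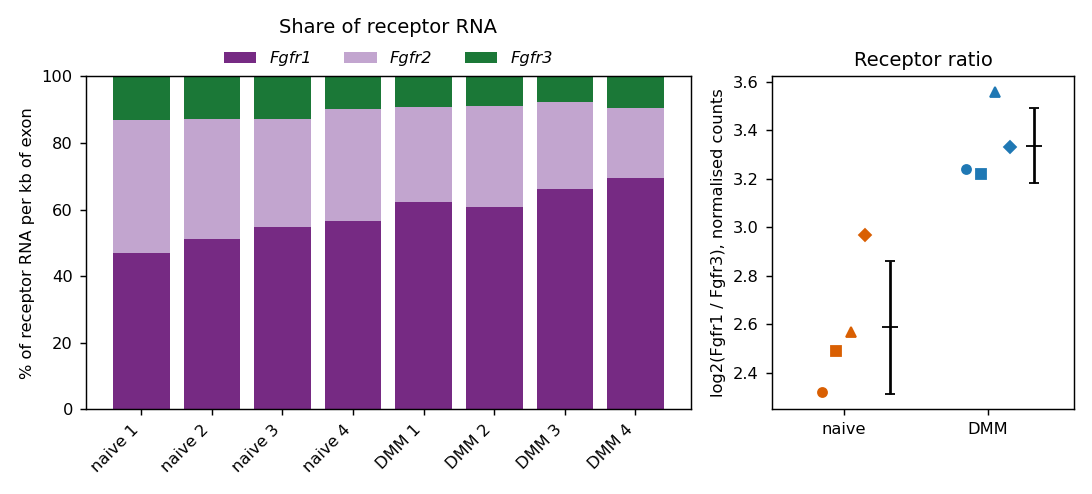
Left, percent of receptor RNA per kilobase of exon taken by Fgfr1, Fgfr2 and Fgfr3 in each library (stacked bars, from 0). Right, log2 ratio of Fgfr1 to Fgfr3 normalised counts per library with mean ± SD (n = 4 per group, axis not from 0), where the DMM libraries lie between 3.22 and 3.56 and the naive libraries between 2.32 and 2.97.

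Other genes of the pathway were taken from 6 lists that cover remaining ligands, co-receptors, heparan sulfate, the intracellular cascade, feedback inhibitors and target transcription factors. Of 75 genes found, 61 had an adjusted p and 15 were called (24.6% of those tested, beside 13.7% of all genes). Of the calls, 14 were higher and 1 was lower in DMM. The median log2 fold change was 0.29, beside -0.02 over all genes tested. Scaling by the total count called 22, with 21 higher.

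Of 17 other FGF ligands only 6 had enough counts for an adjusted p, and 1 was called. Fgf10, a mesenchymal ligand of limb and lung development, fell by 1.21 on the log2 scale (standard error 0.37, adjusted p = 0.00778 in DESeq2), from 88.59 ± 28.6 to 38.17 ± 18.3 normalised counts (SD, n = 4 each). Its libraries ranged from 50.1 to 113.4 in naive and from 18.1 to 62.3 in DMM, so the groups overlapped. Fgf6, a ligand known from muscle, averaged 36.47 and 17.2 and did not pass (DESeq2 adjusted p = 0.186). Fgf21 was at 0 in every library, and the bone hormone Fgf23 averaged 8.553 and 6.517 normalised counts with no adjusted p.

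Of 9 co-receptors and binding partners, 7 had an adjusted p and 3 were called, all higher, beside 7.75% of all genes tested. Flrt2, a membrane protein of a family that binds FGF receptors, rose from 249.9 ± 64.5 to 537.7 ± 19.2 normalised counts (SD, n = 4 each), with an estimated log2 fold change, by DESeq2, of 1.11 (SE 0.17, adjusted p = 2.61e-08). Fgfrl1, a receptor-like protein without a kinase domain, rose from 222.9 ± 13.3 to 352.0 ± 19.8 (log2 fold change 0.66, DESeq2 adjusted p = 2.66e-06). For both genes all DMM libraries lay above all naive libraries. Il17rd (Sef), an inhibitor of FGF signalling, went from 71.39 ± 15.1 to 113.1 ± 25.1 (log2 fold change 0.67, DESeq2 adjusted p = 0.0288). That call was lost without naive library 1 or 3 or DMM library 1 or 3, with adjusted p from 0.0741 to 0.139. It held in 3 of 7 alternative fits. In edgeR's quasi-likelihood test the adjusted p was 0.0512, and in DESeq2 with a replicate block it was 0.116. The klotho genes that serve hormone-like FGFs were scarce, with Kl at 61.02 and 48.05 and Klb at 4.236 and 10.9 normalised counts in naive and DMM.

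Genes that carry or modify heparan sulfate, the FGF cofactor, formed the longest of the 6 lists. Of 18 with an adjusted p, 6 were called higher, 7 more passed the adjusted p under 1.5-fold, and the median log2 fold change was 0.46. Of all genes tested, 7.75% were called higher and 22.6% passed on the adjusted p alone. The syndecan Sdc1, a membrane carrier of heparan sulfate, rose from 321.8 ± 37.7 to 643.1 ± 67.3 normalised counts (SD, n = 4 each, DESeq2 adjusted p = 2.42e-11), and Sdc3 rose from 2448 ± 157 to 3951 ± 269 (DESeq2 adjusted p = 5.75e-11). Hspg2 encodes perlecan, the matrix carrier of Fgf2, and rose from 4973 ± 1050 to 9708 ± 1920 (log2 fold change 0.97, DESeq2 adjusted p = 9.34e-06). For these 3 genes the groups did not overlap. Sulf1, which removes sulfate groups from heparan sulfate outside the cell, rose by 1.10 on the log2 scale (SE 0.21, DESeq2 adjusted p = 7.22e-06), and its relative Sulf2 was also called. Sdc2 was called at a DESeq2 adjusted p of 0.0173, and the call was lost without naive library 1 or 2 or DMM library 3, at 0.0704 to 0.0803, and in edgeR's quasi-likelihood test at 0.067. The chain-building enzyme Ext1 and the glypican Gpc1, with log2 fold changes of 0.58 and 0.55, were among those under 1.5-fold. The sulfotransferase Hs6st1 was the 1 gene of the 7 with a lower mean in DMM (log2 fold change -0.42, DESeq2 adjusted p = 0.0383). That adjusted p was lost without naive library 1 or 2 or any 1 DMM library, at 0.053 to 0.168. Hs6st1 passed the adjusted p in only 1 of 7 alternative fits. It was at 0.064 in edgeR's quasi-likelihood test, and in DESeq2 at 0.0517 with TMM and 0.181 with total count scaling.

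The adaptors and kinases that carry the signal differed little, with a median log2 fold change of -0.04 over 18 genes and 2 called. Plcg1, a phospholipase that docks on the activated receptor, rose from 789 ± 89.5 to 1241 ± 115 normalised counts (SD, n = 4 each, log2 fold change 0.65, DESeq2 adjusted p = 3.48e-06). The docking protein Gab1 rose by 0.61 in log2 units (DESeq2 adjusted p = 0.000181), just over 1.5-fold. Both lay close to the fold threshold, and Plcg1 was under it without DMM library 1 (0.58) and Gab1 without naive library 1 (0.55), DMM library 3 (0.56) or DMM library 4 (0.56).

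Of the feedback inhibitors that FGF signalling switches on, 2 of 9 were called, beside 13.7% of all genes tested. Spry4, a Sprouty inhibitor of the Ras and ERK cascade, rose from 92.14 ± 12.6 to 159.4 ± 31.9 normalised counts (SD, n = 4 each, log2 fold change 0.79, DESeq2 adjusted p = 0.00156), with no overlap between groups. The phosphatase Dusp4 was called at a DESeq2 adjusted p of 0.0444 (log2 fold change 0.68), which was lost without any 1 of naive libraries 1 to 3 or DMM libraries 1, 2 and 4, at 0.0583 to 0.223. Its call held in 3 of 7 alternative fits, and among the losses was edgeR's quasi-likelihood test, at an adjusted p of 0.0621. Dusp6, the ERK phosphatase most used as a readout of FGF signalling, was at 0.19 on the log2 fold scale (adjusted p = 0.259 in DESeq2). Spry1 and Spry2 had log2 fold changes of 0.50 and -0.20 and did not pass. Spred1, at 0.55, passed the adjusted p under 1.5-fold (DESeq2 adjusted p = 5.54e-05), with no overlap between groups. The median log2 fold change of the feedback inhibitors was 0.5. Of the ETS factors induced by FGF, Etv5 rose from 217.3 ± 37.7 to 359.0 ± 29.4 (log2 fold change 0.73, DESeq2 adjusted p = 0.000103), whereas Etv1 (0.41) and Etv4 (-0.29) did not pass.

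**Figure D4:**
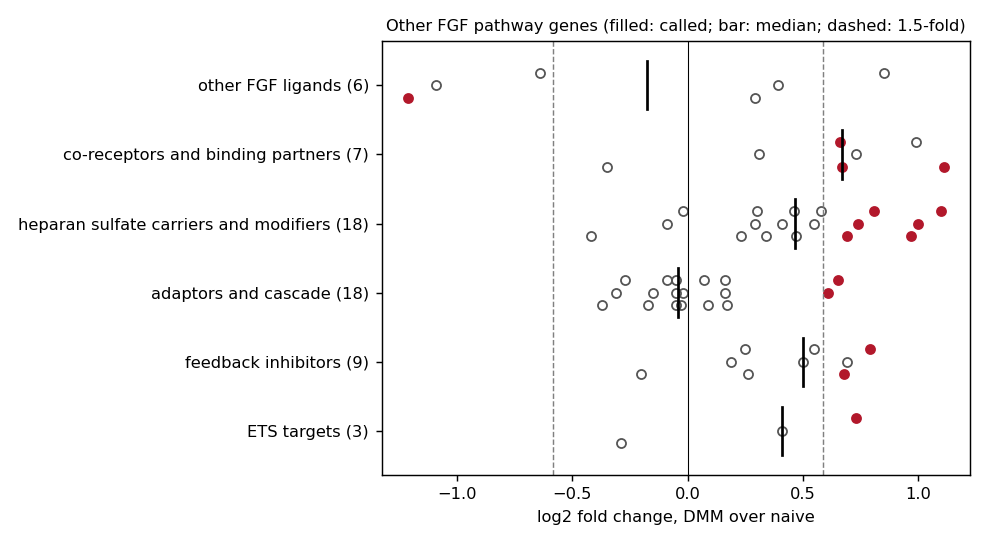
Log2 fold changes, DMM over naive (horizontal axis), of the pathway genes with an adjusted p in 6 lists, with the number of genes in parentheses, filled points for called genes and black bars for list medians. The heparan sulfate list holds 6 called genes, and its median is 0.46. The other medians are 0.67 for co-receptors, 0.5 for feedback inhibitors and 0.41 for ETS targets. They are -0.04 for the adaptors and cascade and -0.17 for other ligands.

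The genes whose values were most like those of Fgf1, Fgf2 and Fgfr1 were found among the 11038 genes that averaged 100 or more normalised counts. Likeness was the root mean square difference of mean-centred log2 values over the 8 libraries, so a small value means nearly parallel levels. Nearest to Fgf1 were Cryab, a small heat shock protein gene (0.132), the predicted gene Gm47761 (0.135) and Chsy3, a chondroitin sulfate synthase gene (0.139). Nearest to Fgf2 were Sfrp4, a secreted Wnt inhibitor (0.170), the metalloproteinase gene Adamts1 (0.178) and Larp6, which binds collagen mRNA (0.181).

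Nearest to Fgfr1 were Flrt2 (0.0886), the potassium channel gene Kcnma1 (0.105) and Dmp1 (0.113), a matrix protein of osteocytes that is on the osteoblast and osteocyte marker list. Dmp1 had 2642.6, 2599.5, 3363.8 and 3535.3 normalised counts in naive and 6223.9, 5593.2, 6465.5 and 7883.5 in DMM libraries. Like Fgfr1, it was higher in naive libraries 3 and 4 than in naive libraries 1 and 2. Flrt2 and Kcnma1 had this order too. So did the chondrocyte markers Acan, Comp and Chad. The chondrocyte markers Col2a1, Sox9, Matn3, Hapln1, Col9a1, Col11a2 and Snorc did not. Whether bone cells contributed to the Fgfr1 counts was not tested. Among themselves Fgf1 and Fgf2 differed by 0.232 on this measure, Fgf1 and Fgfr1 by 0.251 and Fgf2 and Fgfr1 by 0.312. Of the genes compared, 0.217% lay nearer to Fgf1 than Fgf2 did, and 0.399% nearer than Fgfr1 did. For Fgf2, 0.335% lay nearer than Fgf1 and 3.55% nearer than Fgfr1. For Fgfr1, 2.4% lay nearer than Fgf1 and 5.11% nearer than Fgf2. The measure includes the difference between groups, so genes with similar fold changes tend to lie near each other.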

How the data were processed

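RNA of medial knee cartilage was sequenced by the authors, who trimmed reads, pseudo-aligned them with Kallisto and summed transcripts to genes with tximport. The deposited values are estimated counts, of which 39.2% are not whole numbers, since Kallisto divides reads between transcripts. The methods name mouse GRCm38, whereas the submitters' processing notes list a human build, and the library kit differs between labels and methods. Neither difference was resolved.

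Counts were rounded and tested in R 4.3.3 with DESeq2 1.42.0 (Wald test, median-of-ratios size factors, no covariates, all 8 libraries), the test the study names. edgeR 4.0.16 (quasi-likelihood) and limma 3.58.1 (voom), TMM and total count scaling, other filters, a replicate block and leaving out each library were alternatives. Replicates are separate mice. Coordinates are from GENCODE annotation of GRCm38. Of 164 listed genes, 163 were matched (Spry3 was not).

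The 9 genes and all lists were chosen with earlier results of these data known. Besides the 9, text names the up to 4 called genes with the smallest adjusted p per list, the 3 nearest genes of each called member with a mean of at least 100, and genes overlapping a member. Other pathway genes, and the chondrocyte markers, were named after their values were seen. The fit was tested on simulated data.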

Additional observations from a re-analysis of the deposited data

Results flagged for a closer look

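Of 46 groups of 4 libraries tested with Dixon's criterion, 3 held a library set apart from the rest, where chance alone gives 2.3. Naive library 4 had 244.9 normalised counts of Fgf1, above the other naive libraries. DMM library 1 had 74.6 normalised counts of Fgf7, below the other DMM libraries. DMM library 4 had 5591.1 normalised counts of Fgfr1, above the other DMM libraries.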

How the results depend on the processing

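Fgf1, Fgf2 and Fgfr1 were called in the 7 alternative fits that keep the fold threshold and with any 1 library left out, so the count stayed at 3 (3 to 3). Without a fold threshold 5 of the 9 genes, 24 pathway genes and 4010 genes of the table passed. With any 1 library left out, 11 to 19 pathway genes (15 with all libraries) and 1858 to 2842 genes (2429) were called. For the 16 called genes that the naming rule covers, 104 of 112 values under the 7 other fits kept the call, 8 lost it (Il17rd and Dusp4) and 0 reversed. Fgf18 ranged from -0.141 to 0.808 on the log2 scale with 1 library left out and reversed, to -0.141, without DMM library 3. The Fgfr1 to Fgfr3 difference ranged from 0.657 to 0.875 with 1 library left out, and under the replicate block it was 0.748 with an exact p of 0.125. The Fgf18 to Fgf2 difference ranged from -0.913 to -0.0757. The shared replicate numbers did not pair the mice (correlations of deviations 0.05, 0.06, -0.12 and 0.12), and with the number as a block 2081 genes of the table and 13 pathway genes were called. Fgfr2 and Fgfr3 then had adjusted p of 0.091 and 0.127. The cause of these differences was not tested.

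Fgfr4 was at or under the detection floor, and Fgf18 had low counts that varied widely between mice. Surgery and age cannot be told apart. The marker lists that moved with the groups were not modelled.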
